A study of Macaca fascicularis with 3 samples.

Results

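FOS, JUN, NR4A1, ZFP36 and BTG2 are 5 immediate-early genes that were taken by symbol from the gene tables of this single-cell and single-nucleus study of cynomolgus macaque muscle. They are 5 of the 33368 features in the table of whole cells and 5 of the 38550 features in each table of nuclei, and each of the 5 had a named row in all 3 tables. The nuclei tables list them as ENSMFAG00000014606 for FOS, ENSMFAG00000050244 for JUN, ENSMFAG00000045297 for NR4A1, ENSMFAG00000000900 for ZFP36 and ENSMFAG00000025652 for BTG2, and the cell table gives symbols only. No chromosomal positions are printed, since the genome build is not given in the sources used here.

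Immediate-early genes are transcribed within minutes of a stimulus, without new protein synthesis, from promoters read by factors such as SRF, its ternary complex partners and CREB. Their transcripts and proteins are short-lived, and feedback inhibitors such as the DUSP phosphatases shut the response off. In skeletal muscle they are known to respond to contraction, growth factors and injury, and in many tissues also to excision and enzymatic dissociation.

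The study holds 3 libraries of Macaca fascicularis muscle: whole cells of extraocular muscle (EOM, the muscles that move the eye), nuclei of EOM, and nuclei of the quadriceps femoris (QFM, a thigh muscle). Each group is 1 library, so there was no test between groups. Intervals are exact 95% intervals and cover counting error only. Preparation, muscle, animal and library therefore cannot be told apart, and the labels give no genotype, treatment, age or number of animals and no time from sampling to processing.

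The 3 libraries held 8979 EOM cells, 16491 EOM nuclei and 12503 QFM nuclei as deposited, with 12248405, 61618999 and 72590186 unique molecular identifiers (UMIs, each marking 1 captured transcript). After filters and doublet removal, 7111 EOM cells, 13975 EOM nuclei and 10525 QFM nuclei were kept, with a median of 1142, 2811 and 4508 UMIs per barcode. Mitochondrial transcripts made up a median of 11.9% of UMIs in EOM cells, 0.459% in EOM nuclei and 0.190% in QFM nuclei. The EOM and QFM nuclei shared 51 barcodes, and the cell barcodes, 27 letters long against 16 in nuclei, cannot be matched to either. The QFM sample is titled as nuclei while the names of its deposited files call it single-cell, so the ratios between the muscles may also compare nuclei with cells. Its mitochondrial share lay nearer that of the EOM nuclei than that of the EOM cells.

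Barcodes were placed in classes by marker transcripts. The fibre markers were MYH7 (slow myosin) and MYH13 or MYH3 (rows named for extraocular and embryonic myosins). The other markers were PDGFRA (fibro-adipogenic cells), PTPRB (endothelium), NOTCH3 (mural cells), CD163 (macrophages) and PAX7 (satellite cells). The MYH3 row was taken by its name, and which myosin it counts in the quadriceps was not tested. A single UMI of a marker did not separate the classes. By that rule 99.3% of EOM nuclei and 79.2% of QFM nuclei were MYH13/MYH3-positive, and 20.7% of EOM nuclei against 5.72% of QFM nuclei were PAX7-positive. A stricter rule was therefore used, with at least 2 UMIs of 1 marker and myosins at or below 0.5% of UMIs for the non-fibre classes, and at least 10 myosin UMIs above 0.5% of UMIs for the fibre classes. NOTCH3 has no named row in the nuclei tables and MYH7 has none in the cell table, and RGS5 (a pericyte gene) was added as a second mural marker after the data were seen.

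The classes held 66 EOM and 761 QFM nuclei for MYH7, 5841 EOM and 3844 QFM nuclei for MYH13/MYH3, and 259 EOM and 188 QFM nuclei for PDGFRA. PTPRB marked 323 EOM cells, 984 EOM nuclei and 930 QFM nuclei, RGS5 marked 505 EOM cells, 174 EOM nuclei and 157 QFM nuclei, and CD163 marked 127 EOM cells, 131 EOM nuclei and 123 QFM nuclei. NOTCH3 marked 269 EOM cells, and PAX7 marked 357 EOM and 332 QFM nuclei. The cell library gave only 2 MYH13/MYH3 cells, 27 PDGFRA cells and no PAX7 cell, so fibres, fibro-adipogenic cells and satellite cells could not be compared between cells and nuclei. No class was assigned to 6363 EOM cells, 6337 EOM nuclei and 4347 QFM nuclei. In each class of 50 or more barcodes the marker list of its own cell type had the highest sum of any list. Each list includes the marker that defines the class, so this order was partly set by the class rule. The PTPRB class carried 6543 CPM (counts scaled to a total of 1000000 UMIs) of endothelial markers in EOM cells, 8379 CPM in EOM nuclei and 10915 CPM in QFM nuclei. Some classes of EOM nuclei were less clear. The RGS5 class had fast markers at 3045 CPM beside mural markers at 3234 CPM. The PAX7 class had fast markers at 3676 CPM beside satellite markers at 4127 CPM. Fast markers were also present in the other non-fibre classes of EOM nuclei. They stood at 2586 CPM in PDGFRA, 2848 CPM in PTPRB and 3106 CPM in CD163 nuclei, against 2393, 1340 and 1783 CPM in QFM nuclei. The MYH7 class had fast markers at 3753 CPM beside slow markers at 5786 CPM in EOM nuclei, against 1400 and 14842 CPM in QFM nuclei.

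Over all kept barcodes the 5 genes had the same order in each case, with EOM cells highest, QFM nuclei next and EOM nuclei lowest. FOS, the AP-1 subunit that needs a JUN-family partner to bind DNA, stood at 3447 CPM in EOM cells, 2.44 CPM in EOM nuclei and 44.4 CPM in QFM nuclei. At least 1 FOS UMI was found in 70.6% of EOM cells, 0.758% of EOM nuclei and 12.0% of QFM nuclei. JUN, the AP-1 subunit that can also bind DNA with itself, stood at 2805 CPM in EOM cells, 13.5 CPM in EOM nuclei and 167 CPM in QFM nuclei. It was seen in 71.5% of EOM cells, 4.33% of EOM nuclei and 46.5% of QFM nuclei.

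NR4A1, an orphan nuclear receptor, had a level of 198 CPM in EOM cells, 5.24 CPM in EOM nuclei and 46.7 CPM in QFM nuclei. It was seen in 13.1% of EOM cells, 1.80% of EOM nuclei and 18.8% of QFM nuclei, so that its share of positive barcodes was largest in QFM nuclei although its level was not. ZFP36, which binds AU-rich elements and speeds decay of cytokine and immediate-early mRNAs, stood at 1186 CPM in EOM cells, 7.18 CPM in EOM nuclei and 23.8 CPM in QFM nuclei. BTG2, an antiproliferative protein that recruits the CCR4-NOT deadenylase, stood at 479 CPM in EOM cells, 8.10 CPM in EOM nuclei and 127 CPM in QFM nuclei. BTG2 was seen in 31.4% of EOM cells, 2.67% of EOM nuclei and 33.5% of QFM nuclei, again with the largest share in the deeper QFM barcodes. ZFP36 was seen in 49.8% of EOM cells, 2.32% of EOM nuclei and 10.1% of QFM nuclei.

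Any of the 5 genes was seen in 89.8% of EOM cells, 10.9% of EOM nuclei and 71.0% of QFM nuclei. With each barcode thinned to 500 UMIs, which left no barcode out, the shares were 80.9% of EOM cells, 2.36% of EOM nuclei and 17.0% of QFM nuclei. The order of the libraries was thus the same at equal depth. NR4A1 and BTG2, the members whose unthinned share was larger in QFM nuclei than in EOM cells, changed order: NR4A1 was seen in 6.26% of EOM cells against 2.27% of QFM nuclei at 500 UMIs, and BTG2 in 17.2% of EOM cells against 5.31% of QFM nuclei.

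In QFM nuclei each member had its own order of classes. FOS was highest in the MYH7 class at 82.3 CPM (interval 74.5 to 90.8), followed by the MYH13/MYH3 class at 57.2 CPM (54.0 to 60.6). The intervals, which take UMIs as independent, did not overlap. The shares of positive nuclei did, at 18.8% (16.1 to 21.8%) and 17.6% (16.4 to 18.8%). In tertiles by depth, shallow to deep, FOS stood at 59.8, 71.4 and 98.1 CPM in the MYH7 class. The tertiles of the MYH13/MYH3 class stood at 67.2, 54.1 and 55.2 CPM, so the shallow tertile had the other order. FOS then dropped to 17.8 CPM in the PAX7 class. It lay between 2.88 and 13.3 CPM in the CD163, RGS5, PDGFRA and PTPRB classes, whose neighbours overlapped. BTG2 was also highest in the MYH7 class, at 269 CPM (255 to 284) against 86.7 CPM (82.7 to 90.8) in the MYH13/MYH3 class. By CPM, FOS and BTG2 were therefore the members whose highest class in the quadriceps was the slow-myosin MYH7 class.

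JUN did not share that order. It stood at 231 CPM (224 to 237) in the MYH13/MYH3 class and 218 CPM in the RGS5 class, which overlapped, and at 134 CPM (124 to 145) in the MYH7 class. NR4A1 was highest in the RGS5 class at 135 CPM (110 to 165), above the MYH13/MYH3 class at 56.3 CPM and the MYH7 class at 53.5 CPM, which overlapped each other. ZFP36 was led by the non-fibre classes, with 139 CPM (109 to 175) in CD163 nuclei, 83.8 CPM (63.9 to 108) in RGS5 nuclei and its lowest level, 11.9 CPM (10.5 to 13.5), in the MYH13/MYH3 class. The CD163 nuclei of QFM also carried 1385 CPM of a neutrophil and monocyte marker list of 4 genes, none of them at 0, against 5.83 CPM with 3 of the 4 at 0 in EOM nuclei. The part of those cells in the ZFP36 level was not tested.

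In EOM nuclei all 5 genes were low in every class, and for each gene all neighbouring classes in the order of levels overlapped, although classes further apart in the order could be separate. BTG2 stood at 33.6 CPM (27.5 to 40.7) in the PTPRB class against 3.58 CPM (2.84 to 4.45) in the MYH13/MYH3 class, and for JUN the PAX7 and MYH13/MYH3 intervals did not overlap either. The highest class levels were 14.6 CPM for FOS in CD163 nuclei (5 UMIs), 32.1 CPM for JUN in PAX7 nuclei (29 UMIs), 7.93 CPM for NR4A1 in PTPRB nuclei (25 UMIs), 37.9 CPM for ZFP36 in CD163 nuclei (13 UMIs) and 33.6 CPM for BTG2 in PTPRB nuclei (106 UMIs). The MYH7 class had no FOS, ZFP36 or BTG2 UMI in 66 nuclei, which allows a share of nuclei with a UMI of up to 4.55% by the floor of 3 counts and 5.44% by the exact interval. The 5841 nuclei of the MYH13/MYH3 class together held 48 FOS UMIs in 41 nuclei.

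In EOM cells the macrophage-like CD163 class had the highest level of 4 of the 5 genes. FOS stood there at 4803 CPM (4563 to 5052), overlapping the RGS5 class at 4457 CPM, and above the NOTCH3 class at 3053 CPM and the PTPRB class at 2967 CPM, which overlapped each other. NR4A1 at 335 CPM (274 to 406) and ZFP36 at 2148 CPM (1988 to 2316) were above every other class, while BTG2 at 827 CPM overlapped the PTPRB class at 679 CPM. JUN was highest in the RGS5 class at 3341 CPM (3209 to 3477). The NOTCH3 class was lowest for ZFP36 at 906 CPM and for BTG2 at 381 CPM. The CD163 cells also carried 4602 CPM of the neutrophil and monocyte list, with none of its 4 genes at 0, and its part in these levels was not tested.

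**Figure D1:**
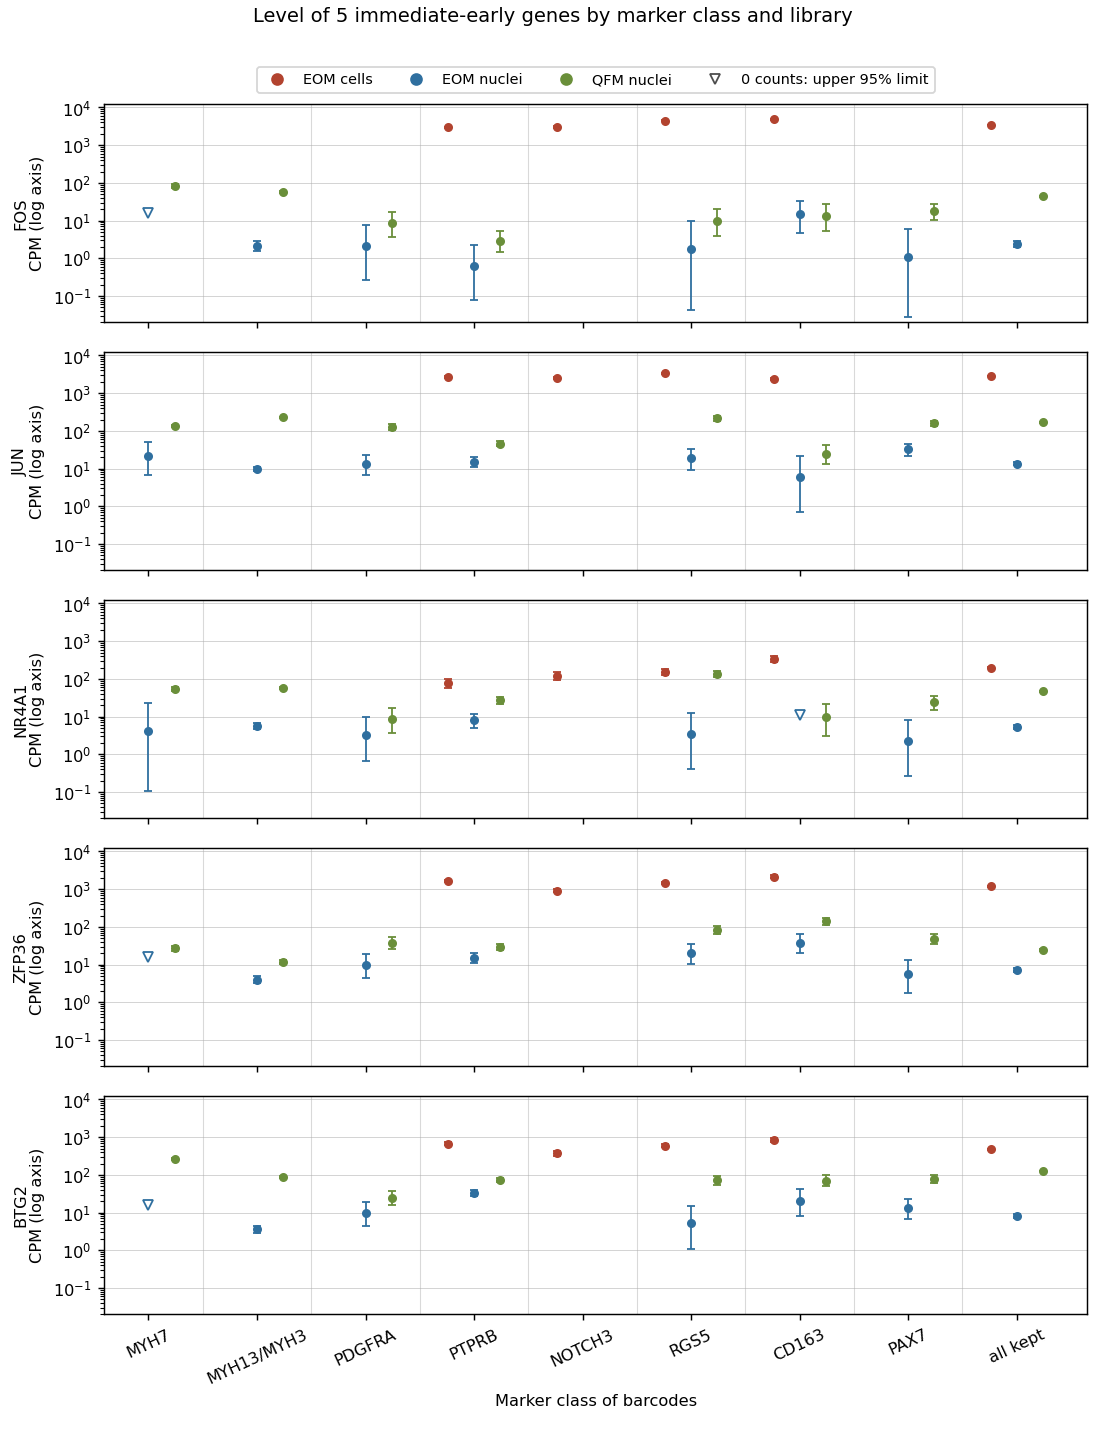
Level of each gene (CPM, log axis) by marker class in EOM cells, EOM nuclei and QFM nuclei, 1 library each, with exact 95% Poisson intervals for counting error. The EOM cells lie highest in every class drawn for them, and FOS in QFM nuclei is highest in the MYH7 class at 82.3 CPM.

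Transcripts free in the droplet fluid can give UMIs in barcodes that do not express a gene, and no class here is known to lack immediate-early genes. As a gauge, 7 fast-fibre genes were read in PTPRB nuclei, where their level was a median of 20.1% (12.1 to 44.0%) of that in MYH13/MYH3 nuclei in EOM, and 4.60% (2.87 to 11.7%) in QFM. FOS in PTPRB nuclei was at 29.9% of its MYH13/MYH3 level in EOM and 5.04% in QFM, but its few UMIs in endothelial-like nuclei (2 in EOM, 11 in QFM) do not place it. The EOM level in PTPRB nuclei has an interval of 0.0769 to 2.29 CPM, which holds the 2.12 CPM of MYH13/MYH3 nuclei, and the part of free RNA in these UMIs was not tested. In QFM, JUN at 19.9%, NR4A1 at 48.0%, BTG2 at 86.5% and ZFP36 at 253% lay above the fast range, and in EOM JUN at 157%, NR4A1 at 139%, ZFP36 at 379% and BTG2 at 940% did. Of 5 slow-fibre genes the level in PTPRB nuclei was 26.3 to 58.0% of that in MYH13/MYH3 nuclei in EOM and 61.8 to 109% in QFM. In QFM, BTG2 lay within that slow range, JUN and NR4A1 lay below it and ZFP36 lay above it. In EOM cells the part of free RNA was not tested.

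EOM nuclei were compared with QFM nuclei within each class to see how the 2 muscles differ in these genes, at a fold of 2 among genes with at least 20 counts over both sums. All 5 members were at least 2-fold lower in EOM nuclei of the MYH13/MYH3 class. In the MYH7 class all 5 also counted as lower, though 3 of them had no EOM count and ZFP36 passed only with a count of 0 set at 3 UMIs. In the MYH13/MYH3 class 10% of 17885 genes were at least 2-fold lower, and in the MYH7 class 13.1% of 10360 genes were. The median of all genes was log2 0.35 in the MYH13/MYH3 class and 0.27 in the MYH7 class, so relative to it each member was lower still. The MYH13/MYH3 class pools both myosins, and its nuclei differed between the muscles in other fast-fibre genes. ACTN3 stood at 23.1 CPM in EOM against 1603 CPM in QFM nuclei, and PVALB at 166 CPM against 7.30 CPM. The part of fibre type in the ratios of this class was not tested.

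FOS in the MYH13/MYH3 class had 48 UMIs (2.12 CPM) in EOM nuclei against 1175 UMIs (57.2 CPM) in QFM nuclei. That is 27.0-fold lower in EOM, log2 -4.75 (interval -5.20 to -4.34), and 0.207% of the genes tested had a ratio as low. JUN had 219 UMIs (9.68 CPM) in EOM nuclei against 4735 UMIs (231 CPM) in QFM nuclei, log2 -4.57 (-4.78 to -4.38), with 0.257% of genes as low. BTG2 had 81 UMIs (3.58 CPM) in EOM nuclei against 1781 UMIs (86.7 CPM) in QFM nuclei, log2 -4.60 (-4.94 to -4.28), with 0.246% as low. FOS, JUN and BTG2 thus had intervals that overlapped one another. NR4A1 with 129 UMIs (5.70 CPM) in EOM nuclei against 1156 UMIs (56.3 CPM) in QFM nuclei had a smaller ratio of log2 -3.30 (-3.58 to -3.04). ZFP36 was the member with the least difference, 91 UMIs (4.02 CPM) in EOM nuclei against 245 UMIs (11.9 CPM) in QFM nuclei, log2 -1.57 (-1.93 to -1.22), and 4.74% of genes had a ratio as low. With at least 20 myosin UMIs per nucleus the FOS ratio was log2 -5.54, and with 1 marker UMI as the rule the JUN ratio was -3.73.

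In the MYH7 class the EOM counts were 0 for FOS, 5 for JUN, 1 for NR4A1, 0 for ZFP36 and 0 for BTG2, against 403, 658, 262, 131 and 1318 in QFM. With a count of 0 set at a floor of 3 UMIs, BTG2 was at least 21.3-fold, FOS at least 6.51-fold and ZFP36 at least 2.12-fold lower in EOM nuclei. The exact intervals are wider and end at log2 -4.11 for BTG2, -2.40 for FOS and -0.76 for ZFP36, so that the ZFP36 interval does not reach the 2-fold limit. JUN had log2 -2.67 (-4.30 to -1.44) and NR4A1 log2 -3.67 (-8.98 to -1.18). The 66 EOM nuclei behind these values carried more fast markers than the QFM nuclei, as given above.

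The difference was not confined to fibre classes, though every non-fibre class of EOM nuclei also carried fast markers, as given above. In the RGS5 class 4 of 4 measured members were at least 2-fold lower in EOM nuclei (15.6% of 8367 genes were), with NR4A1 at 2 UMIs (3.44 CPM) in EOM nuclei against 97 UMIs (135 CPM) in QFM nuclei, log2 -5.30 (-8.37 to -3.41). BTG2 there had log2 -3.82 and JUN -3.53. The PAX7 class had 4 of 4 measured members lower (14.1% of 9928 genes), between -3.42 for NR4A1 and -2.29 for JUN. The PDGFRA class had 3 of 3 lower (15.6% of 9487 genes), between -3.32 for JUN and -1.35 for BTG2. The CD163 class had 2 of 2 lower (15.4% of 6713 genes), ZFP36 at -1.88 and BTG2 at -1.79, where FOS, with 5 UMIs in EOM nuclei and 7 in QFM nuclei, was too rare to measure.

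Endothelial-like nuclei had smaller ratios than MYH13/MYH3 nuclei for 3 members. In the PTPRB class 3 of 4 measured members passed the fold (6.65% of 12857 genes were at least 2-fold lower). NR4A1 had log2 -1.77 (-2.46 to -1.13), JUN -1.59 (-2.08 to -1.12) and BTG2 -1.16 (-1.49 to -0.83), and ZFP36 at -0.99 (-1.50 to -0.49) fell just short of the fold. For JUN, NR4A1 and BTG2 the PTPRB interval lay nearer 0 than that of the MYH13/MYH3 class and did not overlap it, while for ZFP36 the intervals overlapped. The PTPRB intervals overlapped those of BTG2 in the PDGFRA class and of ZFP36 and BTG2 in the CD163 class. Over all kept nuclei all 5 members were lower in EOM, against 8.25% of 20748 genes.

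**Figure D2:**
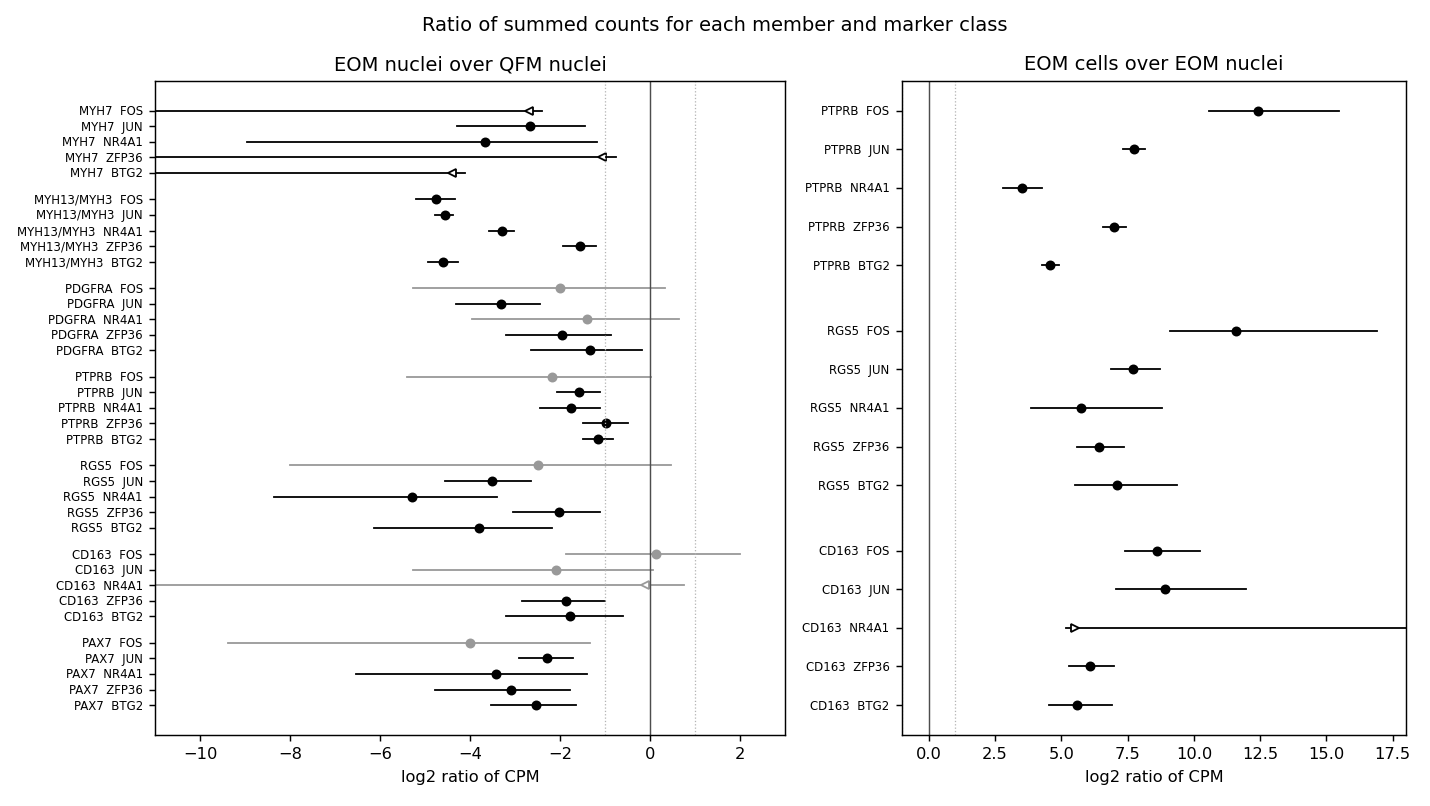
Log2 ratio of each gene by marker class, EOM nuclei over QFM nuclei and EOM cells over EOM nuclei, with exact 95% intervals for counting error, open arrows for bounds where a count is 0, and grey for genes with under 20 counts. Every measured member lies below 0 in EOM nuclei over QFM nuclei and above 0 in EOM cells over EOM nuclei.

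EOM cells were compared with EOM nuclei, the same muscle in both preparations, over the 13945 symbols that both tables hold and in the 3 classes with enough barcodes in each. All 5 members were at least 2-fold higher in cells in the PTPRB, RGS5 and CD163 classes. Of all genes tested 24.5% were at least 2-fold higher in the PTPRB class, 28.0% in the RGS5 class and 25.2% in the CD163 class, and the medians of all genes were log2 -0.63, -0.65 and -1.20. Over all kept barcodes all 5 members were higher too, against 30.0% of genes.

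FOS in PTPRB barcodes had 1910 UMIs in 323 EOM cells against 2 UMIs in 984 EOM nuclei, log2 12.43 (10.58 to 15.48), and 0.0111% of the genes tested had a ratio as high. JUN had 1754 UMIs in EOM cells against 48 UMIs in EOM nuclei, log2 7.73 (7.31 to 8.17). ZFP36 had 1056 UMIs in EOM cells against 48 UMIs in EOM nuclei, log2 6.99 (6.58 to 7.44). These exceeded the ratios of BTG2, 437 UMIs in EOM cells against 106 in EOM nuclei, log2 4.58 (4.27 to 4.90), and of NR4A1, 49 UMIs in EOM cells against 25 in EOM nuclei, log2 3.51 (2.78 to 4.26). In the RGS5 class the ratios ran between 5.75 for NR4A1 and 11.59 for FOS, which rests on 1 UMI in nuclei (interval 9.11 to 16.89). In the CD163 class they ran between 5.60 for BTG2 and 8.90 for JUN, and NR4A1, with 105 UMIs in cells and 0 in nuclei, was at least 45.7-fold higher with the same floor, with an exact interval that starts at log2 5.19. The 2 EOM libraries differ in preparation, in feature table and in depth, which cannot be told apart.

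Whether few or all barcodes carry the transcripts was read from the share of positive barcodes, set against the share that would be positive if every barcode of the class carried the gene at 1 common rate for its depth. The observed share as a percentage of that even share was also taken for every gene whose even share was at least 5%. Most genes fall somewhat short of an even spread, with a median of 87.5 to 92.7% across the classes. A gene far below the median is held by fewer barcodes than its level alone would give.

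FOS in quadriceps fibres was held by few nuclei. In the MYH7 class 18.8% of nuclei (143 of 761, interval 16.1 to 21.8%) were positive, against 39.6% under an even rate. The observed share was 47.5% of the even share, where the median of 8129 genes was 91.7% and 0.467% of genes were as low or lower. The 10% of nuclei with the most FOS held 83.4% of its UMIs, against 43.2% under an even rate, and 25 nuclei had 5 or more UMIs, 8 had 10 or more and the highest had 19. In the MYH13/MYH3 class of QFM 17.6% were positive against 25.5% under an even rate, or 69.1% of the even share, with 3.85% of 7999 genes as low, and the highest nucleus held 13 UMIs.

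JUN, NR4A1 and ZFP36 were spread over QFM fibre nuclei about as most genes were. JUN was seen in 62.9% of MYH13/MYH3 nuclei against 66.3% under an even rate, which is 94.9% of it, beside a median of 91.9%. NR4A1 at 93.7% and ZFP36 at 93.9% of the even share also lay above the median. In the MYH7 class JUN reached 88.0%, NR4A1 96.0% and ZFP36 89.5% of the even share. BTG2 lay between FOS and these, at 80.8% in the MYH7 class (62.9% observed, 77.9% even) and 84.4% in the MYH13/MYH3 class (29.9% observed, 35.5% even). Its richest nucleus had 17 UMIs.

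**Figure D3:**
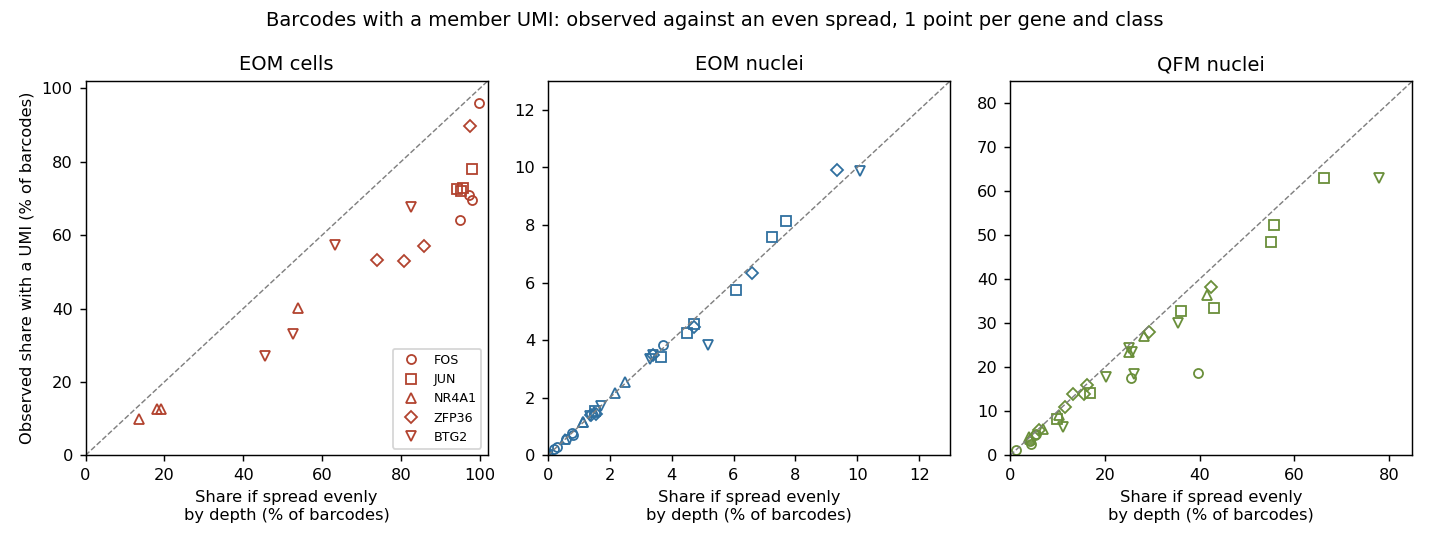
Observed share of positive barcodes (percent) against the share expected if each barcode carried the gene at 1 rate, by gene, class and library. Points below the diagonal are held by fewer barcodes than an even rate gives, as FOS in the MYH7 class of QFM nuclei with 18.8% observed and 39.6% even.

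In the non-fibre QFM classes the positive share of the members ranged from 1.18% for FOS in PTPRB nuclei to 52.2% for JUN in RGS5 nuclei. ZFP36 was seen in 38.2% of CD163 nuclei, 28.0% of RGS5 nuclei, 13.9% of PAX7 nuclei, 16.0% of PDGFRA nuclei and 10.9% of PTPRB nuclei. BTG2 was more uneven than most genes in PDGFRA nuclei, where 6.38% were positive, 57.1% of the even share, with 3.94% of 7265 genes as low. That value rests on 23 UMIs in 12 nuclei.

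In EOM nuclei the shares were small in every class, and the even shares of the members in the MYH13/MYH3 class were under 5%, so their spread was not read there. FOS was seen in 0.702% (0.504 to 0.951%), JUN in 3.42% and NR4A1 in 2.16% of MYH13/MYH3 nuclei. The largest share of any member in a class was 9.92% for ZFP36 in CD163 nuclei, followed by 9.86% for BTG2 in PTPRB nuclei. No EOM nucleus of the fibre classes had more than 4 FOS UMIs, and 1 MYH13/MYH3 nucleus held 8 ZFP36 UMIs.

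The few FOS-positive EOM nuclei differed from the rest in depth and mitochondrial share. In the MYH13/MYH3 class the 41 positive nuclei had a median of 2313 UMIs against 3556 in the 5800 negative nuclei, and 0.910% mitochondrial UMIs against 0.385%. By depth, the shallowest tertile of the class held 28 of the 48 FOS UMIs, at 8.48 CPM, against 0.720 CPM in the middle tertile and 1.21 CPM in the deepest. The other members were also highest in the shallowest tertile. Shallow to deep, JUN stood at 17.0, 9.94 and 7.59 CPM and NR4A1 at 8.18, 4.61 and 5.65 CPM. ZFP36 stood at 5.76, 3.89 and 3.63 CPM and BTG2 at 6.36, 2.59 and 3.39 CPM. In QFM nuclei of that class FOS-positive nuclei were deeper, with 5283 UMIs against 4604 in negative nuclei. They had 0.133% mitochondrial UMIs against 0.142%. FOS in the QFM tertiles, shallow to deep, stood at 67.2, 54.1 and 55.2 CPM. The part of depth and RNA quality in the EOM values was not tested.

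In EOM cells most barcodes carried at least 1 member, but fewer than an even rate gives. In the PTPRB class FOS was seen in 64.1% (207 of 323) against 95.1% under an even rate, and ZFP36 in 57.0% against 85.8%. These are 67.4% and 66.4% of the even share, beside a median of 90.1% over 5085 genes, with 2.58% and 2.24% of genes as low. The top 10% of those cells held 52.7% of the FOS UMIs against 30.3% under an even rate, with up to 124 UMIs in 1 cell, while 116 cells had none. BTG2 in the same cells was spread as most genes were, at 57.3% against 63.2% or 90.6% of the even share. In the NOTCH3 class it was BTG2 that was most uneven, at 27.1% against 45.5%, or 59.6%, with 1.48% of 3308 genes as low. The RGS5 class lay between 62.9% for BTG2 and 76.1% for JUN.

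In the CD163 class nearly all cells had a FOS UMI: 96.1% (122 of 127, interval 91.1 to 98.7%) were positive against 99.8% under an even rate. Near 100% such a share has little room to differ, and at 500 UMIs per barcode FOS was seen in 76.9% of these cells against 90.9% under an even rate and ZFP36 in 55.3% against 65.8%. Each of the 127 cells had at least 1 UMI of some member, and 89.0% had 3 or more of the 5 genes. JUN was seen in 78.0%, BTG2 in 67.7% and NR4A1 in 40.2% of these cells.

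In EOM cells and in QFM fibre nuclei, fewer barcodes held 3 or more members than even rates would give. Most single genes also fall short of an even spread, and the same share was not taken for other sets of 5 genes. The value for all EOM cells also mixes the classes. At least 3 of the 5 genes were seen in 47.1% of all EOM cells, where even rates would give 79.6%, and none was seen in 10.2%, where even rates would give 0.220%. In QFM nuclei 24.3% of the MYH7 class and 13.8% of the MYH13/MYH3 class had 3 or more, with 37.4% and 18.5% under even rates, and 15.2% and 18.7% had none. In the MYH13/MYH3 class of EOM nuclei 3 of 5841 nuclei (0.0514%) had 3 members and 91.4% had none.

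**Figure D4:**
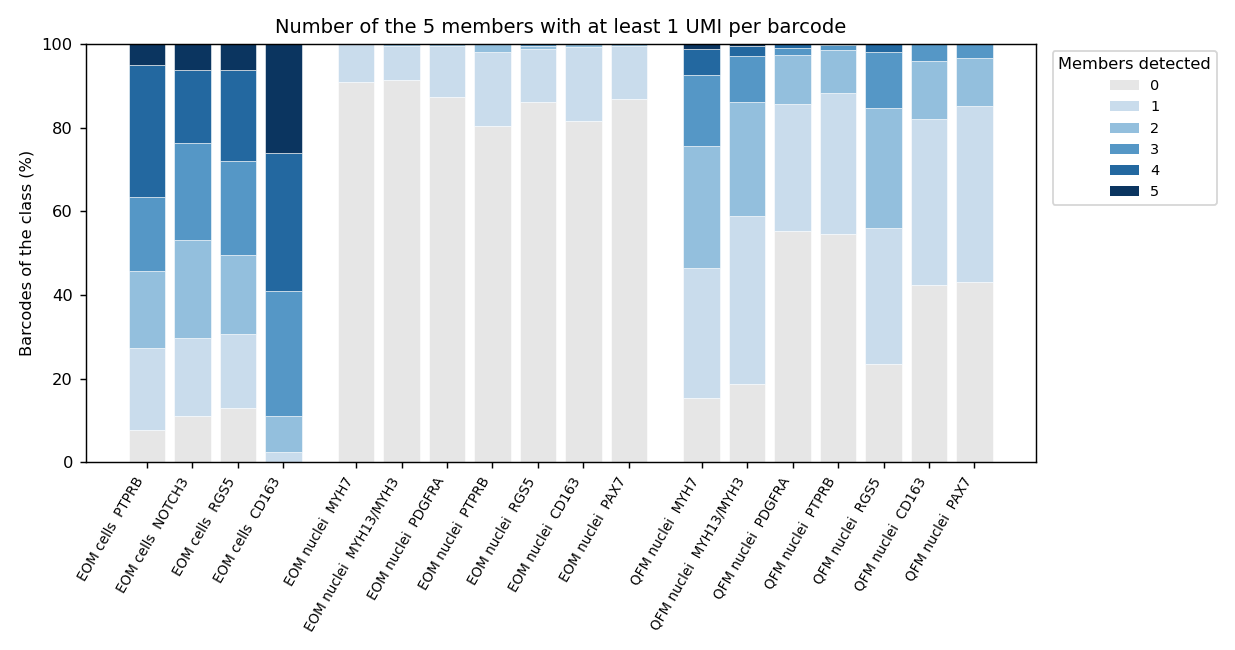
Percentage of barcodes with 0 to 5 of the 5 genes seen, by library and class, as stacked bars that each sum to 100%. In EOM nuclei of the MYH13/MYH3 class 91.4% had none, against 18.7% in QFM nuclei of that class.

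Over all EOM cells each of the other 4 members was seen in a larger share of FOS-positive than of FOS-negative cells. In the PTPRB class ZFP36 was seen in 77.8% of FOS-positive cells and 19.8% of FOS-negative cells, and at 1000 UMIs per barcode in 69.5% and 17.7%. JUN was seen in 84.1% of FOS-positive and 51.7% of FOS-negative cells of that class, and in 80.1% and 43.5% at 1000 UMIs. In the NOTCH3 class BTG2 was seen in 36.6% of FOS-positive and 3.85% of FOS-negative cells. Not every member differed so within a class. NR4A1 in the PTPRB class was seen in 6.55% of FOS-positive and 6.14% of FOS-negative cells at 1000 UMIs. In the CD163 class, with only 5 FOS-negative cells, JUN and BTG2 were each seen in 80% of those. The FOS-positive cells of that class had 77.9% for JUN and 67.2% for BTG2. Over all EOM cells the values for ZFP36 were 60.9% of FOS-positive and 23.2% of FOS-negative cells. FOS-positive cells were deeper, with a median of 1288 UMIs against 876, with a mitochondrial share of 11.9% in both.

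In QFM fibre nuclei every other member was likewise seen more often where FOS was. The intervals overlapped for ZFP36 in both classes and for JUN in the MYH7 class. In the MYH7 class BTG2 was seen in 83.9% of the 143 FOS-positive nuclei and 58.1% of the 618 FOS-negative nuclei, and at 1000 UMIs in 36.0% and 18.1%. NR4A1 was seen in 43.4% of FOS-positive and 23.5% of FOS-negative nuclei of that class. In the MYH13/MYH3 class BTG2 was seen in 38.6% of FOS-positive and 28.1% of FOS-negative nuclei, and at 1000 UMIs in 11.1% and 7.24%. FOS-positive nuclei were deeper in both classes, at 6815 against 5548 UMIs in the MYH7 class.

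Other genes of the pathway moved only in part with the members between the muscles. Of 10 measured feedback inhibitors in the MYH13/MYH3 class 5 were at least 2-fold lower and 1 was higher in EOM nuclei, and of 7 early zinc finger and nuclear receptor factors 4 were lower and 1 was higher. Of all genes in that class 10% were lower and 32.2% were higher. Of 3 measured AP-1 genes other than the members, none passed the fold. Upstream factors gave 2 lower and 3 higher of 12, heat shock genes 1 lower and 1 higher of 4, RNA decay and antiproliferative genes 1 lower and 2 higher of 8, and AP-1 and stress targets 3 lower and 2 higher of 8. The median was log2 -1.10 for the feedback inhibitors and -1.18 for the zinc finger and nuclear receptor factors, beside 0.35 for all genes, and between -0.15 and 0.32 for the other lists.

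DUSP1, the phosphatase that switches off MAP kinases, stood at 8.88 CPM in EOM nuclei against 119 CPM in QFM nuclei of the MYH13/MYH3 class, log2 -3.75 (-3.96 to -3.54). RPS6KA3, a kinase that acts below ERK and phosphorylates CREB and SRF, stood at 78.3 CPM in EOM nuclei against 703 CPM in QFM nuclei, log2 -3.17. KLF6, an early zinc finger factor, had log2 -1.81, the chaperone DNAJB1 -2.31, MRTFB, an SRF coactivator, -1.70, and the matricellular gene CCN1 -1.82. NR4A3, a relative of NR4A1 that was picked out after its values were seen, stood at 8.93 CPM in EOM nuclei against 56.4 CPM in QFM nuclei, log2 -2.66.

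Some list genes went the other way. EGR1, an early zinc finger factor induced alongside FOS by serum, had 21 UMIs in EOM nuclei against 1 UMI in QFM nuclei of the same class, log2 4.25 (1.62 to 9.62). BTG1, the paralogue of BTG2, stood at 26.5 CPM in EOM nuclei against 5.40 CPM in QFM nuclei, log2 2.29 (2.00 to 2.60). FOSB had 4 UMIs in EOM nuclei and 1 UMI in QFM nuclei of this class. MAPK8, MRTFA, HSP90AA1, SGK1, PER1, KLF4, NFKBIA, ZFP36L1 and CNOT1 stayed within the 2-fold limit. In the PTPRB class 3 of 10 feedback inhibitors, 3 of 5 zinc finger and nuclear receptor factors and 5 of 8 AP-1 and stress targets were lower in EOM nuclei (6.65% of all genes), with none higher (11.8% of all genes), and none of 3 AP-1, 8 RNA decay, 12 upstream and 4 heat shock genes passed.

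Between EOM cells and EOM nuclei of the PTPRB class 4 of the 7 lists had every measured gene higher. All 11 measured feedback inhibitors, all 6 zinc finger and nuclear receptor factors, all 3 AP-1 genes and all 7 AP-1 and stress targets were at least 2-fold higher in cells, against 24.5% of all genes. Upstream factors gave 4 higher and 4 lower of 9, where 42.7% of all genes were at least 2-fold lower. RNA decay and antiproliferative genes gave 5 higher and 1 lower of 8, the lower one being CNOT1, a deadenylase scaffold, at log2 -1.59 (-2.32 to -0.95), and heat shock genes gave 3 higher of 4. EGR1 had 423 UMIs in EOM cells against 3 UMIs in EOM nuclei, log2 9.67 (8.12 to 11.96), and DUSP1 had 788 UMIs in EOM cells against 49 in EOM nuclei, log2 6.54 (6.12 to 6.99). JUNB and IER2, early genes with a named row in the cell table only, stood at 2356 CPM and 1314 CPM in EOM cells.

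The genes whose level across classes was most like that of the 5 members were sought by the mean Pearson r of log2 CPM with them. Over 15 class sums and 7157 genes DUSP1 had the highest mean r of 0.914, followed by the respiratory chain genes ND4 at 0.914, NDUFA1 at 0.907 and NDUFB4 at 0.906, and SURF1, a cytochrome oxidase assembly factor, at 0.905. These sums come from 3 libraries, and the sums of cells stand apart from those of nuclei, with each member higher in the cell sums than in any sum of EOM nuclei. Over the 12 sums of nuclei and 6294 genes the most alike were MYOM2 at 0.787, CNBP at 0.782, VCP at 0.779, SLC36A2 at 0.777 and PFKFB1 at 0.774. There FOS and BTG2 had r = 0.782 and JUN and NR4A1 r = 0.822, whereas ZFP36 had 0.241 with JUN and 0.238 with NR4A1. The sums of nuclei come from both nuclei libraries, and over all kept nuclei each member was lower in EOM than in QFM. The part of the library in these r values was not tested.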

How the data were processed

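Gene-by-barcode matrices of 3 libraries were used, EOM cells, EOM nuclei and QFM nuclei, grouped by the sample titles. All values were deposited as UMI counts that had not been normalized. Per the file headers, Cell Ranger 7.2.0 produced both nuclei tables; the submitters' processing notes name it and Seurat 5.2.1. What annotation, genome build and strand setting were used, and whether introns were counted, is not given in the sources used here, and the cell table was made over another feature set. Without a stated use of strand, reads of overlapping genes could be shared.

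Barcodes with at least 200 genes and 500 UMIs were kept, and nuclei over 10% or cells over 20% mitochondrial UMIs were dropped. Scrublet in scanpy 1.11.5 (expected rate 6%, seed 1) called 188 of 7299 EOM cells (2.58%), 2498 of 16473 EOM nuclei (15.2%) and 1866 of 12391 QFM nuclei (15.1%) as doublets, which were left out. Counts were summed per class and library and divided by the total to give CPM. Ratios were taken between CPM, over the 13945 shared symbols for cells against nuclei, with conditional exact binomial intervals. Intervals at the 95% level are exact Poisson for levels and Clopper-Pearson for shares. Genes under 20 counts, summed over the pair compared, were not called. A class needed at least 50 barcodes. The fibre classes also allowed at most 1 UMI of the other 5 markers, and a non-fibre marker had to exceed the other 4 together. The even share was computed from each barcode's depth and the class rate. Thinned shares are hypergeometric expectations. Scripts used Python 3.11.15, numpy 2.4.6, scipy 1.17.1 and pandas 2.3.3, and were tested on simulated data.

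The 5 genes, the classes and the gene lists were chosen with earlier results of these data known. The text names every member and, from each list, up to 4 measured genes of the highest level. Alternatives were the rule for classes, doublets kept, stricter barcode filters, other scalings, a minimum of 1 count, and thinning to 1000 UMIs or none.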

Additional observations from a re-analysis of the deposited data

How the results depend on the processing

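With 1 library per group no replicate could be left out. No paired analysis was possible because each group holds 1 library. With a count of 0 set at 3, all 5 members were at least 2-fold lower in EOM nuclei of the MYH7 and MYH13/MYH3 classes, and at least 2-fold higher in EOM cells of the PTPRB, RGS5 and CD163 classes, under each alternative that gave at least 50 barcodes, except that 4 passed in the RGS5 class with the stricter barcode filter. The count of members at least 2-fold lower in EOM nuclei was 5 in the PDGFRA class with 1 marker UMI as the rule, with all kept barcodes together or with a minimum of 1 count, and 3 or 4 otherwise. It was 5 in the PTPRB class with 1 marker UMI, with doublets kept or with all barcodes together, and 3 or 4 otherwise, where 4 came with a minimum of 1 count, the stricter barcode filter or median-ratio scaling. It was 5 in the CD163 class with 1 marker UMI or all barcodes together, and 2 or 3 otherwise. The share of all genes past the fold was taken only with the main settings and over all kept barcodes. These counts therefore have no background under the other alternatives. Of the alternative log2 ratios, 235 of 240 for EOM over QFM nuclei and 95 of 95 for EOM cells over nuclei kept their sign. The 5 others were FOS and NR4A1 in the CD163 class, where FOS ran between 0.17 and -4.19.

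The share of barcodes with any member followed depth. In PTPRB cells of EOM it was 78.0% at 500 UMIs, 90.7% at 1000 and 92.3% unthinned. In MYH13/MYH3 nuclei of EOM it was 1.52% at 500 UMIs, 2.70% at 1000 and 8.58% unthinned, and 2.35%, 1.16% and 2.36% with 1 marker UMI, with 20 myosin UMIs and over all nuclei. In MYH13/MYH3 nuclei of QFM it was 19.7% at 500 UMIs, 34.5% at 1000 and 81.3% unthinned, and 17.7% and 17.0% with 1 marker UMI and over all nuclei. The share of FOS UMIs in the top 10% of barcodes was 45.6% at 500 UMIs and 52.7% unthinned in PTPRB cells of EOM. In MYH13/MYH3 nuclei of QFM it was 100% at 500 UMIs, where fewer than 10% of nuclei keep a UMI, and 75.2% unthinned. Thinning sets the depth, and the cause of the other shifts was not tested.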
